A study of Mus musculus with 10 samples.

Results

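The genes described here are 33 components of the unfolded protein response and the integrated stress response, out of 18193 genes that a probe set of the array names alone. They were taken from a named list of pathway members, which was chosen with earlier results of these data known. They fall into 15 chaperones and folding enzymes of the endoplasmic reticulum (ER), 7 genes of ER-associated degradation (ERAD), 4 genes for the sensors and the factor Xbp1, and 7 genes of the ATF4 arm. All 33 were on the array. A mean under 4 on the log2 scale of these arrays is near background. By that measure 29 members were measurable and were tested, while Derl3, Ppp1r15a, Asns and Sesn2 lay near background.

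RNA came from livers of 10 female mice, with 1 array per animal. In 5 mice human APOE3 replaced the mouse gene on both alleles (Apoetm2(APOE*3)Mae), and in 5 human APOE4 did (Apoetm3(APOE*4)Mae). All were of the C57BL/6 strain at 3 months of age. All had eaten a high-fat diet whose milk fat supplied 41% of energy, with cholesterol at 2 g/kg, for 6 weeks according to the design text and for 2 months according to the growth protocol. The human gene was driven by the mouse Apoe promoter in both groups, and no mice with mouse Apoe or on a low-fat diet were analysed here. The single mouse Apoe probe set lay between 0.96 and 1.19 log2 on all 10 arrays, at background, and cannot tell the isoforms apart. Every difference below is APOE4 minus APOE3 on the log2 scale. The question asked is whether the genes of these stress pathways are expressed at other levels in APOE4 than in APOE3 liver.

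Secreted and membrane proteins fold in the ER, and hepatocytes secrete most plasma proteins. When unfolded proteins build up there, the membrane sensors IRE1, PERK and ATF6 signal to the nucleus. IRE1 splices the Xbp1 messenger RNA, ATF6 is cut to release a transcription factor, and together they raise chaperone and ERAD genes. PERK phosphorylates the initiation factor eIF2, as do other kinases of the integrated stress response, which slows translation in general and favours that of ATF4. ATF4 drives genes of amino acid supply and, with CHOP, the product of Ddit3, genes of feedback and cell death. Splicing of Xbp1 and translation of Atf4 are not read by these probe sets, which measure the amount of transcript.

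No member passed the adjusted threshold. The smallest adjusted p in limma among the 29 tested members was 0.557, for Pdia4, and 0.0815% of all 14732 tested probe sets passed. At an unadjusted p under 0.05, 4 members were higher in APOE4, 13.8% of those tested against 5.53% of all tested probe sets. These were Pdia3, Pdia4, Pdia6 and Ern1. One member, Trib3, was lower, 3.45% against 2.46%. Only 2 members were higher by this measure with the arrays centred, where 2.62% of all tested probe sets were. The count was likewise 2 when APOE3 replicate 1 or APOE4 replicate 1, 3 or 5 was left out. The share of all tested probe sets was then 8.02%, 4.89%, 4.15% and 4.34%, in that order. Dropping APOE4 replicate 2 raised the count to 6 (5.54% of all), as did dropping APOE3 replicate 4 (4.91%). Each remaining omission gave 3 or 4 members. In none of the 29 tested members did the genotypes separate without overlap, against 2.02% of all tested probe sets. By sign alone, 23 tested members were positive and 6 negative, or 79.3% positive against 60.9% of all tested probe sets. Their median difference was 0.17, and that of all tested probe sets 0.047. Without APOE4 replicate 1, 19 members were positive and 10 negative, beside 60.9% of all tested probe sets positive. Only the order of the medians turned there, to 0.035 for the members against 0.050 for all tested probe sets. The member median was 0.11 without APOE3 replicate 1 and 0.27 without APOE4 replicate 2. With each array centred on its median over the tested probe sets, which was 7.10 in APOE3 and 7.16 in APOE4 in the means, 18 members were positive and 11 negative, while the share of all probe sets that were positive fell to 47.5%. After renewed quantile normalization 19 members were positive and 10 negative, beside 51.0% of all tested probe sets positive.

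**Figure D1:**
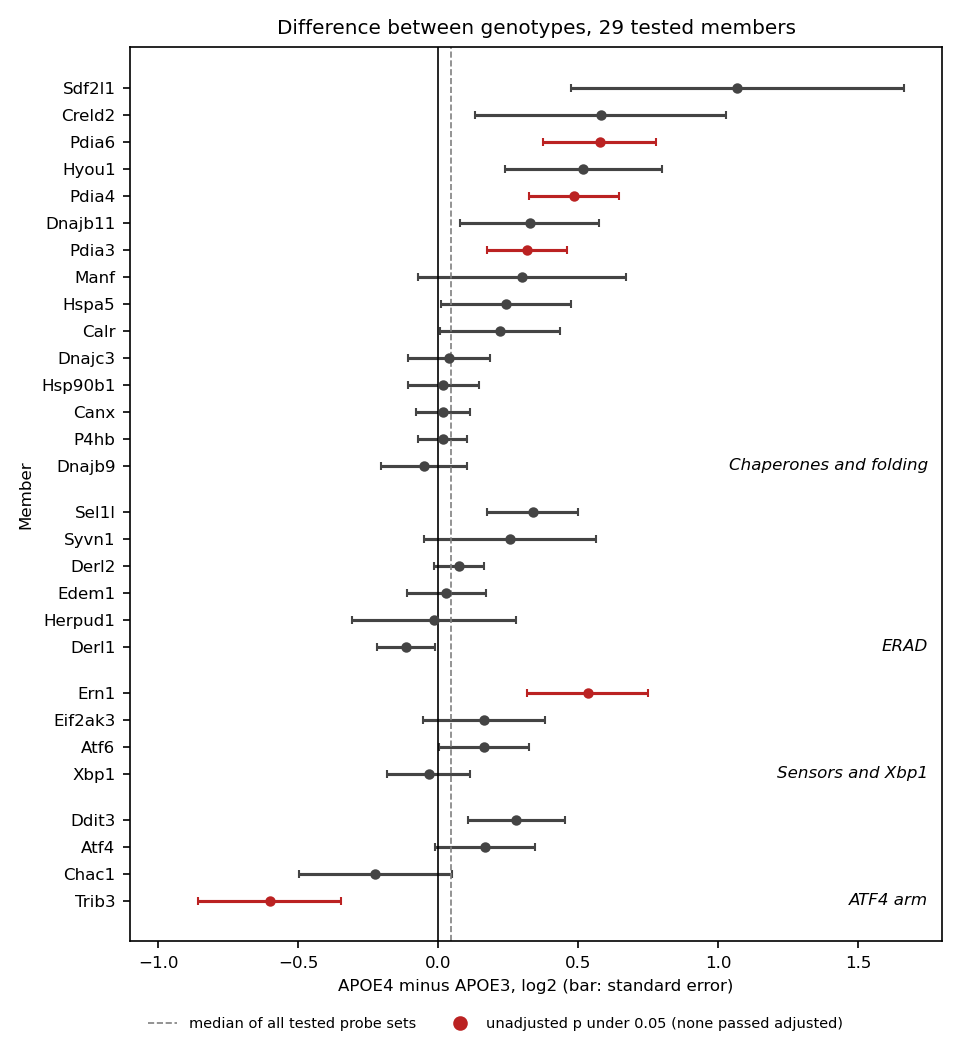
Difference between APOE4 and APOE3 (x axis, log2, with its standard error) of the 29 tested members, grouped by role; the dashed line is the median of all tested probe sets. Sdf2l1 has the largest positive difference, 1.07, with the widest error, Trib3 the lowest, -0.60, and no member passed the adjusted threshold.

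Among the chaperones and folding enzymes, 14 of 15 were positive, with a median of 0.30. Without APOE4 replicate 1, 11 were positive and the median was 0.12, and without APOE3 replicate 1, 11 were positive and the median was 0.16. The count of positive genes also depended on scaling, with 10 when arrays were centred and 11 after renewed quantile normalization. Canx, P4hb and Dnajc3 changed sign in both settings, and Hsp90b1 also with centring. The share of all tested probe sets that were positive was 47.5% and 51.0% in these settings. The chaperone median was 0.24 and 0.26, in that order. The best separated genes were protein disulfide isomerases, which form and rearrange disulfide bonds in proteins of the secretory pathway. Pdia4 was at 8.14, 8.56, 8.46, 8.66 and 8.10 log2 in APOE3 replicates 1 to 5, and at 9.25, 8.50, 8.66, 8.94 and 8.98 in APOE4. The 3 highest values were all APOE4, and the 3 lowest all APOE3. The group means were 8.38 ± 0.25 and 8.87 ± 0.29 (SD, n = 5 each), a difference of 0.49 (SE 0.16), or 1.40-fold.

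Pdia6 was at 9.66, 9.92, 9.98, 10.49 and 9.51 in APOE3, and at 10.89, 9.996, 10.39, 10.54 and 10.62 in APOE4. Only APOE3 replicate 4 lay within the APOE4 range. The difference was 0.58 (SE 0.20), 1.49-fold, with an adjusted p of 0.580 in limma. Pdia3, the isomerase that works with the lectin chaperones on glycoproteins, was at 10.75, 10.97, 11.11, 11.47 and 10.94 in APOE3, and at 11.65, 11.11, 11.26, 11.39 and 11.41 in APOE4. It differed by 0.32 (SE 0.14; adjusted p = 0.624 in limma). The remaining isomerase of the list, P4hb, which is also a subunit of collagen prolyl hydroxylase, was at 12.02 ± 0.10 and 12.03 ± 0.10 (SD, n = 5 each). Its range over all 10 animals was 1.17-fold.

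Hspa5 encodes BiP, the ER HSP70 chaperone that also holds the sensors inactive. It was at 12.10, 12.76, 12.58, 13.11 and 12.26 in APOE3, and at 13.31, 12.21, 12.95, 12.58 and 12.96 in APOE4. The genotypes overlapped over most of their range, with a difference of 0.24 (SE 0.23; adjusted p = 0.809 in limma), or 0.11 without APOE4 replicate 1. A second strong Hspa5 probe set was at 0.26 (SE 0.25). A low one was at -0.27 (SE 0.098; 5.10 and 4.83 in the means), so the probe sets of Hspa5 disagree in sign. Hsp90b1, the ER HSP90 chaperone GRP94, was at 12.41, 12.81, 12.88, 13.01 and 12.58 in APOE3, and at 12.90, 12.59, 12.76, 12.65 and 12.87 in APOE4. Its difference was 0.02 (SE 0.13), and below 0 with arrays centred or weighted, while its second probe set was at 0.34 (SE 0.20).

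The largest difference of all members was that of Sdf2l1, a partner of ER HSP40 chaperones. It was at 4.71, 5.38, 5.83, 7.10 and 5.05 in APOE3, and at 8.44, 4.93, 6.48, 6.90 and 6.67 in APOE4. The spread within a genotype (SD 0.93 and 1.25) was about as large as the difference of 1.07 (SE 0.60; adjusted p = 0.678 in limma), which was 0.63 without APOE4 replicate 1. From the lowest to the highest animal Sdf2l1 spanned 13.2-fold, and its SD was larger than that of 99.4% of tested probe sets. Creld2 spanned 6.69-fold and Manf, a secreted protein retained in the ER, 4.59-fold. Their differences were 0.58 (SE 0.45) and 0.30 (SE 0.37). Without APOE4 replicate 1 Creld2 was at 0.22 and Manf at -0.022. Hyou1, the ER HSP110 chaperone, was at 0.52 (SE 0.28), Dnajb11 at 0.33 (SE 0.25) and the lectin chaperone gene Calr at 0.22 (SE 0.21). Canx, the membrane-bound lectin chaperone, and Dnajc3, which restrains PERK, were at 0.02 (SE 0.097) and 0.04 (SE 0.15). Dnajb9, an HSP40 gene known as a target of XBP1, was the single negative chaperone at -0.05 (SE 0.15).

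**Figure D2:**
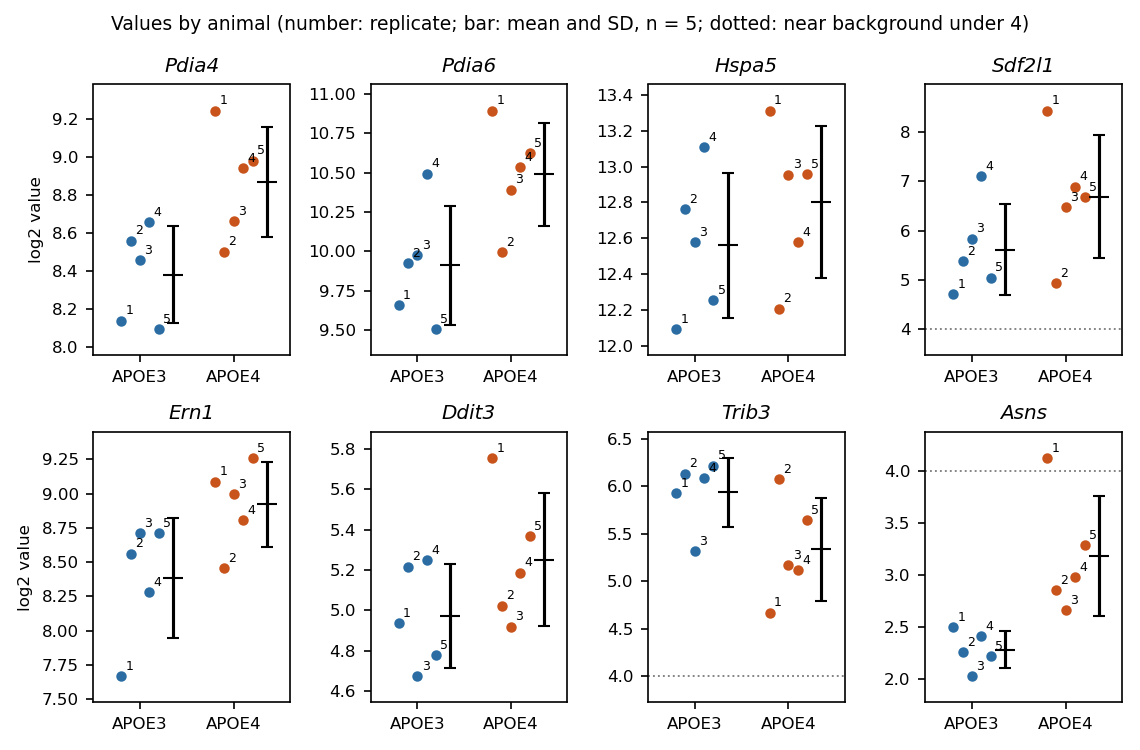
Values of 8 members by animal (y axis, log2; each point is an animal, its number the replicate, with mean and SD, n = 5). APOE4 replicate 1 is the highest of all 10 animals for Pdia4, Pdia6, Hspa5, Sdf2l1 and Ddit3 and the lowest for Trib3. Asns lies under the dotted near-background line at 4 in all animals but APOE4 replicate 1.

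Many chaperone genes were high or low in the same animals, within both genotypes. APOE4 replicate 1 held the highest value of 12 of the 15 chaperones, and APOE3 replicate 1 the lowest of 9. APOE3 replicate 4 lay above the median of the 10 animals for 14 of 15, as did APOE4 replicate 5, while APOE4 replicate 2 and APOE3 replicate 1 did so for 1 each. Averaged over the 15 genes, the level was 9.53, 9.96, 10.05, 10.47 and 9.77 in APOE3 replicates 1 to 5, and 10.82, 9.79, 10.26, 10.09 and 10.39 in APOE4. The means were 9.96 ± 0.35 and 10.27 ± 0.38 (SD, n = 5 each), so the difference of 0.31 was smaller than the SD within either genotype. Without APOE4 replicate 1 it was 0.17, and without APOE3 replicate 4 it was 0.44.

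**Figure D3:**
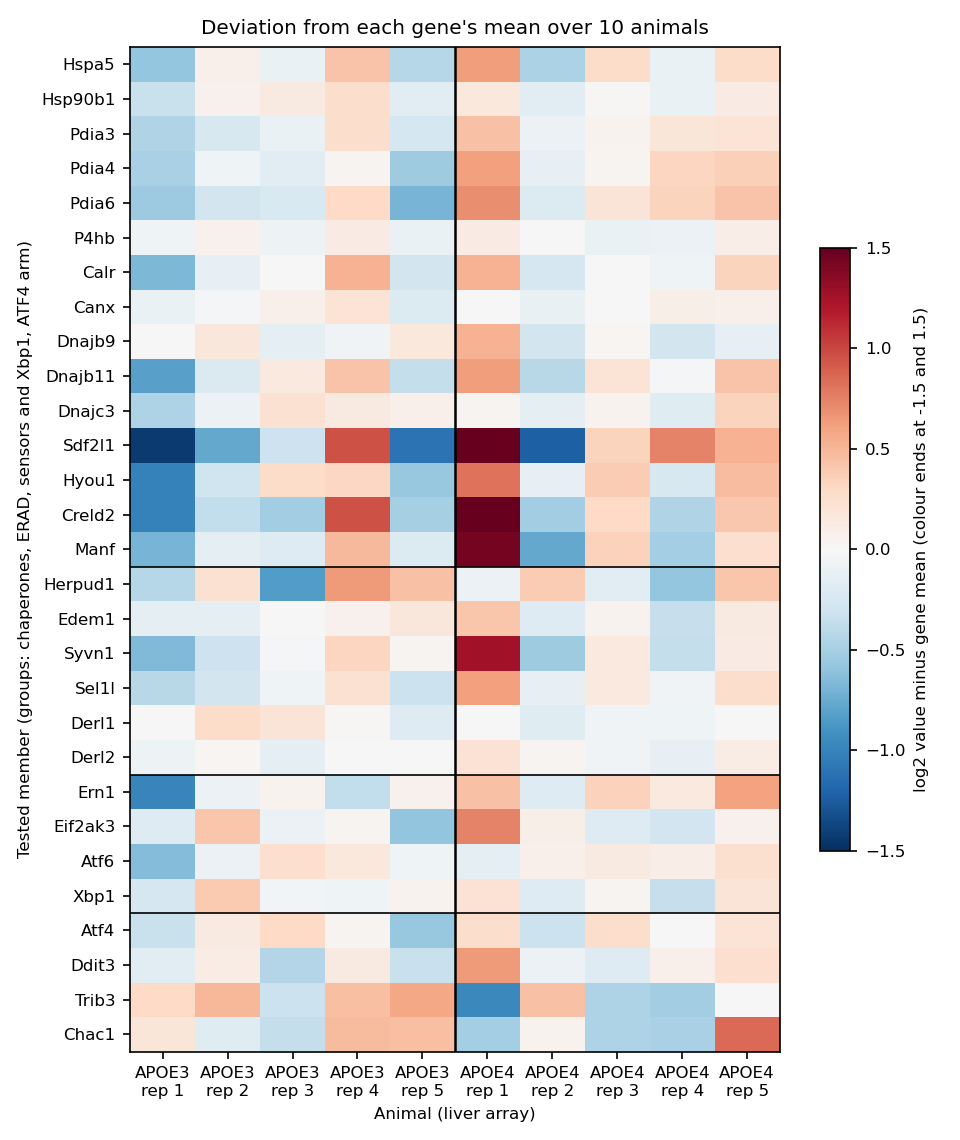
Deviation of each tested member from its own mean over the 10 animals (colour, log2; rows are genes grouped by role, columns are animals). APOE4 replicate 1 is high and APOE3 replicate 1 low across most chaperones, with Sdf2l1, Creld2 and Manf the most variable, while Trib3 and Chac1 run the other way in APOE4 replicate 1.

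The 2 animals with the highest chaperone levels, APOE4 replicate 1 and APOE3 replicate 4, also stood apart in transcripts of other cell types. Jchain, the immunoglobulin joining chain of plasma cells, was at 6.13 in APOE4 replicate 1 and 4.57 in APOE3 replicate 4, and at 2.64 to 3.28 on the other arrays. The heavy chain gene Ighm, looked up after the Jchain values were seen, was at 7.32 and 5.27 in these animals and under 4 on the other arrays. Of 14 plasma cell and lymphocyte markers on the array, 11 were near background, Mzb1 among them at no more than 2.81. Kupffer cell and macrophage markers, averaged over 20 genes, were also highest in APOE3 replicate 4 (9.71) and APOE4 replicate 1 (9.09), against 8.09 to 8.84 in the others. APOE4 replicate 5, next in chaperone level, had Jchain at 2.80 and the lowest level of these macrophage markers, 8.09. In bulk tissue, fewer cells of a type and less RNA per cell cannot be told apart. With both animals left out, a choice made after seeing the data, the chaperone level differed by 0.30, 14 of 15 chaperones were positive and their median was 0.27. This omits a high animal from each genotype, and the omission of APOE4 replicate 1 alone gave the lower values above. Their part in the result was not tested beyond this. No member then passed (smallest adjusted p = 0.687 in limma).

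Several chaperone genes share a known promoter element, the ER stress response element (ERSE), which ATF6 and XBP1 bind together with NF-Y. The ERSE was searched as CCAAT followed, after 9 bases of any kind, by CCACG, on both strands of RefSeq promoter windows (GRCm38.p6) from 250 bases before to 50 after the transcript start. Of the 33 members, 29 had a window, and 9 of these genes held an ERSE in at least 1 window. The element was in 0.119% of all 32851 windows, a share counted by window and not by gene (27025 genes). The 9 genes were Hspa5, Hsp90b1 (which held 2), Pdia6, Calr, Canx, Dnajc3, Creld2, Syvn1 and Derl3. The windows of Pdia3, Pdia4, P4hb, Dnajb9 and Sdf2l1 held none of these letters. The 250 bases before the Hspa5 start (chr2:34771840-34772089, plus strand) are shown whole, since BiP is the standard reporter of this response, with the ERSE 65 to 47 bases before the start in capitals.
Hspa5: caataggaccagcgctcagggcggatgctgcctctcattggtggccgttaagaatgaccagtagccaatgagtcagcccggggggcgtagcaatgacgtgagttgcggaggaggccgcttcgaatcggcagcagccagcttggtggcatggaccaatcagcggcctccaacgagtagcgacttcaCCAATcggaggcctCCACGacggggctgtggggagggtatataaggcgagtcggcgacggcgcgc

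Stretches of 59 bases around the element show the same letters in members that differed little between genotypes and in members with larger differences. Each is read 5′ to 3′ on the gene's strand with the ERSE letters in capitals, and in Calr and Creld2 the element lies on the opposite strand. They lie at chr12:17266471-17266529 for Pdia6 (plus strand), chr15:88819500-88819558 for Creld2 (plus), chr8:84847055-84847113 for Calr (minus), chr11:50325780-50325838 for Canx (minus), chr14:118937807-118937865 for Dnajc3 (plus) and chr19:6046512-6046570 for Syvn1 (plus).
Pdia6: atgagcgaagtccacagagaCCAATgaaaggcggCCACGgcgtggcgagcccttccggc
Creld2: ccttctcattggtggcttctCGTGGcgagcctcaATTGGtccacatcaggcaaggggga
Calr: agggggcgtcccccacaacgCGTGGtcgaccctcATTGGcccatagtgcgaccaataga
Canx: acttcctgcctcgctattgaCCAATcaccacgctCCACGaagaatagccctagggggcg
Dnajc3: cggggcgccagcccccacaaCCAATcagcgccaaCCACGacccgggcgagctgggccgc
Syvn1: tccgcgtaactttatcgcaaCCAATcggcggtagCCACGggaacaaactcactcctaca

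Of these 6, Pdia6 (0.58) and Creld2 (0.58) had the largest differences and Canx (0.02) and Dnajc3 (0.04) the smallest. Without APOE4 replicate 1 Pdia6 was at 0.48 and Creld2 at 0.22. A match of letters is a description of the sequence and shows no binding.

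**Figure D4:**
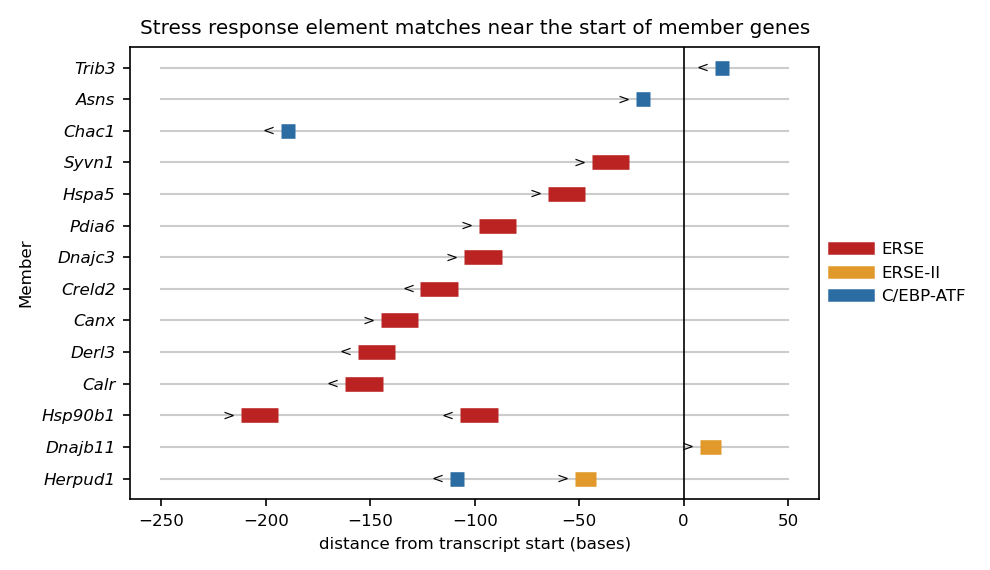
Position of matches to the ERSE (red), ERSE-II (orange) and C/EBP-ATF element (blue) relative to the transcript start (x axis, bases) in members that hold one; arrowheads give the strand. The 10 ERSE matches all lie before the start, the nearest 26 bases from it in Syvn1.

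Of the 6 measurable ERAD genes, which retrotranslocate misfolded proteins for degradation, 4 were positive and 2 negative, with a median of 0.052. Centring left 3 positive and 3 negative. Sel1l, the adaptor of the HRD1 ubiquitin ligase, was at 9.03, 9.17, 9.37, 9.67 and 9.11 in APOE3, and at 10.05, 9.32, 9.58, 9.39 and 9.70 in APOE4. APOE3 replicates 1, 2 and 5 lay below every APOE4 animal. The difference was 0.34 (SE 0.16; adjusted p = 0.635 in limma), and the other tested Sel1l probe sets were at 0.31 (SE 0.16), 0.42 (SE 0.24) and 0.53 (SE 0.17). All 4 tested Sel1l probe sets were thus positive and none passed.

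Syvn1, the HRD1 ligase itself, was at 7.87, 8.22, 8.51, 8.85 and 8.57 in APOE3, and at 9.79, 8.01, 8.68, 8.18 and 8.65 in APOE4. Its difference of 0.26 (SE 0.31) rested on APOE4 replicate 1, and was -0.03 without it. Herpud1, which assembles the ligase complex and responds to both ATF6 and ATF4 signals, was at 10.57, 11.23, 10.15, 11.64 and 11.43 in APOE3, and at 10.91, 11.38, 10.83, 10.41 and 11.41 in APOE4. It varied 2.80-fold between animals without a difference between genotypes (-0.02, SE 0.29), and changed sign in 6 of the 10 fits that left out 1 animal. A weaker Herpud1 probe set was at 0.09 (SE 0.31).

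Herpud1 was the member whose promoter held both an ERSE-II (ATTGG, 1 base of any kind, then CCACG, found in 0.0365% of windows) and a C/EBP-ATF element (TGATGNAA, 3.97% of windows). They are shown because the gene is read by both arms of the response, in capitals, at chr8:94386357-94386407 and chr8:94386297-94386344 on the plus strand. The C/EBP-ATF element lies on the opposite strand.
Herpud1 ERSE-II: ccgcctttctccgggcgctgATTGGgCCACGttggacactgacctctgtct
Herpud1 C/EBP-ATF: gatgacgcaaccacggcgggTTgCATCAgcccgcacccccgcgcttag

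The derlins form part of the retrotranslocation channel. Derl1 was at 10.77, 11.06, 10.97, 10.80 and 10.58 in APOE3, and at 10.78, 10.60, 10.72, 10.72 and 10.79 in APOE4. The genotypes overlapped, with a difference of -0.11 (SE 0.10) and its other probe sets at 0.02 to 0.18. Derl2 was at 0.07 (SE 0.090) by its strongest probe set and at 0.35 (SE 0.12; adjusted p = 0.571 in limma) by a weaker one (7.49 and 7.84 in the means). Derl3 was near background, between 2.62 and 3.05 in APOE3 and between 2.74 and 4.02 in APOE4. Edem1, a lectin that picks glycoproteins for degradation, was at 0.03 (SE 0.14).

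Among the sensors, Ern1, which encodes IRE1 alpha, was at 7.67, 8.56, 8.71, 8.28 and 8.71 in APOE3, and at 9.09, 8.45, 8.996, 8.81 and 9.26 in APOE4. All APOE4 animals but replicate 2 lay above every APOE3 animal. The difference was 0.53 (SE 0.22), or 1.45-fold (adjusted p = 0.584 in limma), and 0.35 without APOE3 replicate 1. A second, low Ern1 probe set was at 0.31 (SE 0.22). Atf6 was at 7.86, 8.43, 8.76, 8.68 and 8.45 in APOE3, and at 8.37, 8.59, 8.65, 8.62 and 8.76 in APOE4, a difference of 0.16 (SE 0.16) that was 0.02 without APOE3 replicate 1. Eif2ak3, which encodes PERK, was at 5.91, 6.52, 6.02, 6.15 and 5.52 in APOE3, and at 6.85, 6.20, 5.92, 5.82 and 6.17 in APOE4. It was at 0.16 (SE 0.22), and at 0.00043 without APOE4 replicate 1.

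Xbp1, the transcription factor gene spliced by IRE1, was at 11.10, 11.76, 11.32, 11.29 and 11.41 in APOE3, and at 11.58, 11.17, 11.40, 11.02 and 11.55 in APOE4. The genotypes overlapped throughout, with a difference of -0.03 (SE 0.15). Its other probe sets were at -0.05 (SE 0.13), -0.04 (SE 0.17) and 0.05 (SE 0.25), so total Xbp1 transcript was not detectably different by any of 4 probe sets.

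Of the 7 members of the ATF4 arm 4 were measurable, of which 2 were positive and 2 negative. Atf4 itself was at 9.61, 10.07, 10.24, 9.99 and 9.38 in APOE3, and at 10.21, 9.62, 10.21, 9.95 and 10.15 in APOE4, a difference of 0.17 (SE 0.18; adjusted p = 0.832 in limma). A second probe set gave 0.48 (SE 0.18; adjusted p = 0.583), from 8.19 to 8.67 in the means. Ddit3, which encodes CHOP, was low at 4.94, 5.22, 4.67, 5.25 and 4.78 in APOE3, and at 5.76, 5.02, 4.92, 5.19 and 5.37 in APOE4. The difference was 0.28 (SE 0.17; adjusted p = 0.703 in limma), or 0.15 without APOE4 replicate 1.

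Trib3, a pseudokinase that feeds back on ATF4 and CHOP and also binds AKT, had the lowest difference of all members. It was at 5.93, 6.14, 5.32, 6.09 and 6.22 in APOE3, and at 4.67, 6.08, 5.17, 5.12 and 5.65 in APOE4. APOE4 replicates 1, 3 and 4 were the 3 lowest animals. The difference was -0.60 (SE 0.26; adjusted p = 0.595 in limma), 0.659-fold, and -0.44 without APOE4 replicate 1. The weaker Trib3 probe set was at -0.34 (SE 0.29). Chac1, a glutathione-degrading enzyme and ATF4 target, was at 5.35 ± 0.38 and 5.12 ± 0.59 (SD, n = 5 each), at -0.22 (SE 0.27). APOE4 replicate 1, the highest animal for 12 chaperones, was the lowest of the 10 for both Trib3 and Chac1. For Chac1 its value of 4.72 was close to those of APOE4 replicate 4 (4.75) and APOE4 replicate 3 (4.77).

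Asns, the asparagine synthetase gene that ATF4 induces when amino acids are short, was near background. It was at 2.50, 2.26, 2.03, 2.41 and 2.22 in APOE3, and at 4.12, 2.85, 2.66, 2.98 and 3.29 in APOE4. The genotypes did not overlap, but only APOE4 replicate 1 exceeded 4, so the gene was not tested and no fold is given. With values under 4 set to 4 the difference of 0.90 became 0.02. The second Asns probe set was at 2.26 to 2.39 on all arrays except APOE4 replicate 1, at 3.50, and its genotypes overlapped. When all probe sets were tested without a filter, Asns had an adjusted p of 0.407 in limma. Ppp1r15a, the GADD34 phosphatase subunit that reverses eIF2 phosphorylation, stayed between 3.27 and 3.88, and the leucine sensor gene Sesn2 between 3.59 and 4.01.

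The C/EBP-ATF element through which ATF4 acts was found in the windows of Asns, Chac1, Trib3 and Herpud1, that of Trib3 after the transcript start. It is shown in capitals for Asns (chr6:7693210-7693252, minus strand) and Chac1 (chr2:119351029-119351076, plus strand, element on the opposite strand). The measurable members with the element, Chac1, Trib3 and Herpud1, were at -0.22, -0.60 and -0.02, and Asns was near background. The weaker Herpud1 probe set was positive, at 0.09 (SE 0.31). The UPRE, searched as TGACGTGG, was in no member's window and in 0.676% of all windows.
Asns: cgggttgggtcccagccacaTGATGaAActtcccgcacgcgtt
Chac1: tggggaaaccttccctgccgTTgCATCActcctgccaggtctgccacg

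Beyond the 33 members, 134 other genes of ER folding, protein entry into the ER, ERAD and the integrated stress response were listed, and 113 were measurable. These lists, like the members, were drawn up with earlier results of these data known. None passed the adjusted threshold. Of them 86 were positive and 27 negative, 76.1% positive against 60.9% of all tested probe sets. At an unadjusted p under 0.05, 14 were higher, 12.4% against 5.53%, and 0 were lower, against 2.46%. In 6 of the 113 the genotypes did not overlap, each higher in APOE4, against 2.02% of all tested probe sets in either direction. The genes of translocation, signal cleavage and N-glycosylation, which admit nascent proteins to the ER, were the most uniform. Of 26, 25 were positive with a median of 0.21 (22 with arrays centred, 23 after renewed quantile normalization). Their mean level was 9.81, 9.85, 9.78, 9.78 and 9.72 in APOE3, and 10.13, 9.91, 9.94, 9.88 and 9.99 in APOE4, and here no animal of one genotype overlapped the other. The gap is narrow, from 9.85 to 9.88, and with centred arrays the nearest animals both stood at 9.85. After renewed quantile normalization the genotypes overlapped, with the highest APOE3 animal at 9.866 and the lowest APOE4 animal at 9.863.

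In that group Ddost, a subunit of the oligosaccharyltransferase, differed by 0.33 (SE 0.11; adjusted p = 0.544 in limma) and the translocon-associated Ssr3 by 0.24 (SE 0.085; adjusted p = 0.571). Among other folding genes 24 of 26 were positive with a median of 0.17 (20 with arrays centred). Erp44, a thioredoxin-family protein that retains client proteins in the early secretory pathway, was at 9.78, 9.57, 9.73, 9.55 and 9.89 in APOE3, and at 10.17, 9.997, 10.18, 10.07 and 10.21 in APOE4. The genotypes did not overlap, and the difference was 0.42 (SE 0.095; adjusted p = 0.396 in limma). Ero1a, the oxidase that reoxidizes disulfide isomerases, was at 6.97, 7.03, 7.20, 7.33 and 7.16 in APOE3, and at 7.69, 7.46, 7.93, 7.45 and 7.39 in APOE4, again without overlap, at 0.45 (SE 0.12; adjusted p = 0.452). Both lie in the disulfide-forming pathway of Pdia4 and Pdia6, but other genes of that pathway ranged widely. P4hb, Pdia5 and Dnajc10 were at 0.02, 0.03 and 0.03, and Txndc12 at 0.11, while Ero1b was at 0.31 and Txndc5 at 0.51. None of these passed the adjusted threshold.

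The remaining pathway genes were closer to an even split, and to the 60.9% of all tested probe sets that were positive. Of 19 other ERAD genes 11 were positive, with a median of 0.029, which fell to -0.03 with arrays centred. The ubiquitin ligase gene Rnf5 differed by 0.21 (SE 0.078; adjusted p = 0.580 in limma). The conjugating enzyme gene Ube2j2 differed by 0.22 (SE 0.10; adjusted p = 0.624). Of 23 measurable ATF4 and amino acid response genes 15 were positive, with a median of 0.057 that was 0.00039 with arrays centred, and 12 others were near background. Slc3a2, the heavy chain of amino acid exchangers, differed by 0.34 (SE 0.15; adjusted p = 0.620 in limma). The tryptophanyl-tRNA synthetase gene Wars differed by 0.19 (SE 0.096; adjusted p = 0.644). Of 19 other regulators 11 were positive with a median of 0.065. The eIF2B subunit genes Eif2b3 and Eif2b4 were at 0.34 (SE 0.14; adjusted p = 0.588) and 0.28 (SE 0.14; adjusted p = 0.644).

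**Figure D5:**
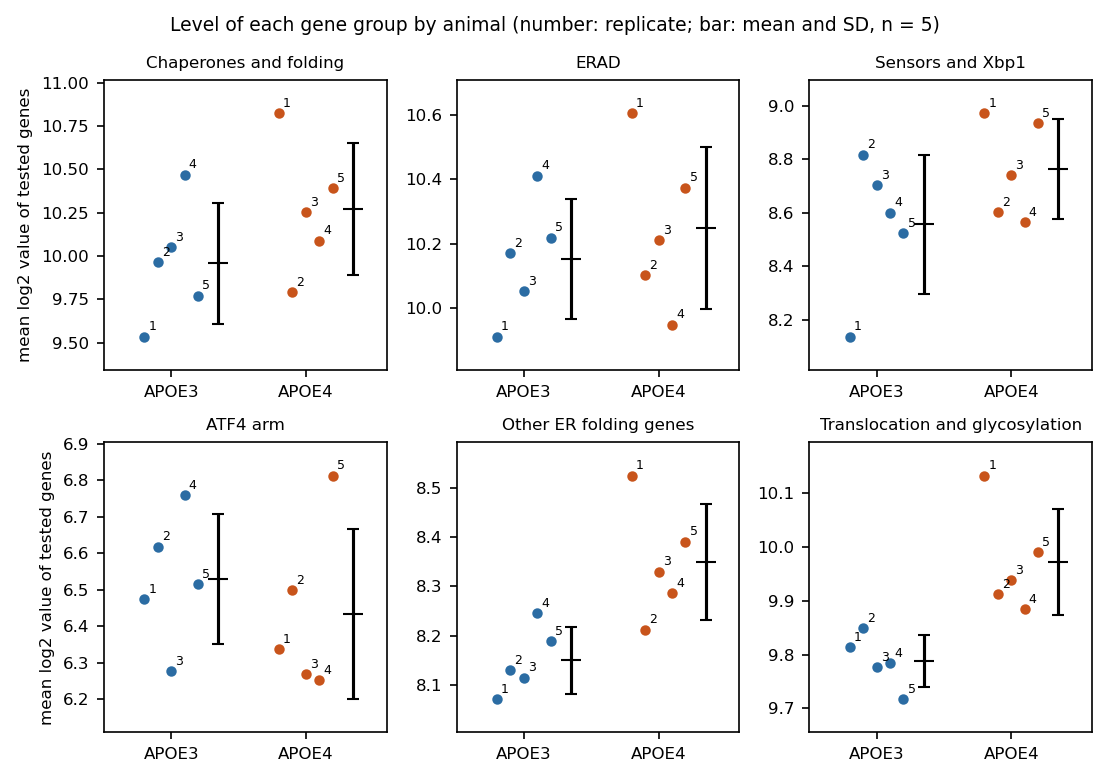
Mean log2 value over the tested genes of 6 groups, by animal (numbers are replicates; bars are mean and SD, n = 5). The genotypes overlap in all 4 member groups and in other ER folding genes, and are apart by a narrow gap, 9.85 against 9.88, in the translocation and glycosylation genes, where they overlap after renewed quantile normalization.

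The tissue label and array quality were checked on other genes. Alb, the albumin gene of hepatocytes, was at 14.46 ± 0.06 and 14.48 ± 0.04 (SD, n = 5 each). Of 13 measurable hepatocyte markers 4 were positive and 9 negative, with a median of -0.13. Of 20 Kupffer cell and macrophage markers 17 were negative, with a median of -0.22. Exocrine pancreas, whose acinar cells are rich in ER chaperones, showed 7 of 8 markers near background in both genotypes, including Cpa1 at 1.71 to 2.15, and the remaining one, Cela1, at 0.17 (SE 0.13). Cholangiocyte and adipocyte markers were near background in 5 of 6 and 3 of 4, and of 12 endothelial markers 8 were positive and 4 negative, while of 10 stellate cell markers 3 were positive and 7 negative. As a sign of RNA quality, Actb signal toward the 3′ end exceeded that toward the 5′ end by 2.68 ± 0.37 and 2.64 ± 0.20 (SD, n = 5 each, exact permutation p = 0.88, two-sided). For Gapdh the excess was 0.439 ± 0.206 and 0.396 ± 0.130 (SD, n = 5 each, exact permutation p = 0.73, two-sided).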

How the data were processed

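One-colour arrays of liver RNA were read from a table of log2 values that the authors deposited, with 1 value per probe set and array. Per the submitters' processing notes, the tools were R 2.7.1 and GCRMA 2.12.1, which uses probe sequence to remove background, normalizes between arrays, and compresses transcripts near background toward a floor. Groups and replicate numbers came from the sample titles, and each array is 1 animal. The number of arrays limits the precision, with a median SE of 0.142 over log2 differences.

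Genes were named only from probe sets with 1 symbol in the platform annotation (34958 of 45101). Each member is given by its probe set with the highest mean. Without the 64 control probe sets, the 14732 probe sets with a mean of at least 4 over all 10 arrays were tested in R 4.3.3 by limma 3.58.1 (eBayes after lmFit, no covariate, two-sided, Benjamini-Hochberg adjustment over all of them, threshold 0.05). The procedure was tested on simulated data with independent noise for each probe set. Such data lack the shared variation of genes between animals described above. Genes given in full were a fixed set of 10, the 3 smallest p in each role and members without overlap. Sdf2l1 was added outside this rule for its largest difference. For the other pathway lists they were the 2 with the smallest p. Members and lists were chosen with earlier results of these data known. Over all probe sets the array medians were 2.66 ± 0.015 in APOE3 and 2.63 ± 0.0091 in APOE4 (SD, n = 5 each, exact permutation p = 0.0079, two-sided). Centring used the median of the tested probe sets, which ran the other way and was higher in APOE4 by 0.057. Promoters are RefSeq windows of GRCm38.p6. Alternatives tried were other filters, moderation, array weights, rescaling, a floor at 4, other probe set rules, a replicate block, and the omission of each animal. Python 3.11.15 with matplotlib 3.10.9 drew the figures.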

Additional observations from a re-analysis of the deposited data

How the results depend on the processing

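The count of members past the adjusted threshold was 0 in every setting tried. The count over all probe sets was 12, and 15 with no filter, 5 with a filter at a mean of 6, 7 with 1 probe set per gene, and 8 to 14 when 1 animal was left out. The level difference of the ATF4 arm was -0.09, but 0.17 with the filter at 6, which left Atf4 alone in it, and 0.087 with no filter, which added its near-background members. Hsp90b1 turned to -0.020 with array weights and -0.038 with arrays centred. Herpud1 became 0.16 with both animals with Jchain above 4 left out. Leaving out 1 animal gave ranges of -0.064 to 0.086 for Hsp90b1, -0.23 to 0.14 for Herpud1, -0.10 to 0.062 for Xbp1 and -0.025 to 0.42 for Syvn1. It gave 0.17 to 0.44 for the chaperone level, 0.0062 to 0.17 for ERAD, 0.10 to 0.27 for the sensors, -0.19 to -0.04 for the ATF4 arm and 0.10 to 0.29 for all members. The median member difference was 0.035 without APOE4 replicate 1. The cause of these changes was not tested. With the replicate number as a block, 11 probe sets and 0 members passed. Same-numbered animals correlated in their deviations by -0.079 to 0.41. In both genotypes replicates 3 and 5 correlated best with their own number, and replicates 1, 2 and 4 did not. With 5 animals per genotype this does not settle whether the numbers pair the animals. Differences near or under a value of 4 have no sure scale.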

Other observations

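Outside the 33 members, 11 genes on the array had an ERSE in their promoter window, found by the letters alone, and 4 of them were measurable. Acnat2, an acyltransferase gene of bile acid and fatty acid conjugation, was at 0.61 (SE 0.31), Ero1b, a disulfide oxidase of the ER, at 0.31 (SE 0.19), the acetyl-CoA carboxylase gene Acacb at 0.24 (SE 0.36) and Pan2 at -0.03 (SE 0.19). None passed the adjusted threshold (smallest adjusted p = 0.648 in limma). Among the members with an ERSE, 8 were measurable, all 8 positive, with a median of 0.23, and between 0.02 and 0.58. With arrays centred, Hsp90b1, Canx and Dnajc3 among them were below 0, and without APOE4 replicate 1 Hsp90b1 and Syvn1 were.

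Adipoq, which encodes the adipocyte hormone adiponectin, was near background on all arrays, at 3.60 in APOE4 replicate 1 and at 1.33 to 1.69 in the other animals. The same animal held the highest Jchain value and the highest Asns value. No member and no role level had an animal standing apart from its genotype by Dixon's test in any of 76 groups of 5 animals, where chance gives about 1 in 20.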
